A study of Homo sapiens with 9 samples.

Results

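Cohesin subunits, their regulators and the boundary factor CTCF were followed as 10 genes, SMC1A, SMC3, RAD21, STAG1, STAG2, NIPBL, WAPL, PDS5A, PDS5B and CTCF, chosen by name from the 59648 gene symbols of the deposited count tables. All 10 were present, and all 10 passed the filter on low counts that left 14741 genes for testing. The data are RNA sequencing counts of Kasumi-1, an established human acute myeloid leukaemia line with the t(8;21) translocation, which fuses RUNX1 to RUNX1T1 and yields the AML1-ETO protein (AE). Each of 3 groups held 3 libraries: control shRNA, shRNA against AE (labelled 1 to 3) and shRNA against LYL1 (labelled 538, 540 and 542), a transcription factor found in complexes with AE. All groups share the lentiviral infection, which ran for 48 h, the following 48 h of selection with puromycin at 1 µg/mL, and the harvest on day 4. The labels give no answer as to whether the AE or LYL1 numbers stand for different shRNAs or whether libraries of a group came from separate cultures. The p-values below therefore capture only the scatter among these samples, which may be technical.

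Cohesin is a ring-shaped complex that holds DNA molecules together. SMC1A and SMC3 form a pair of long coiled-coil ATPases, RAD21 closes the ring, and STAG1 or STAG2 binds RAD21 as an alternative additional subunit. NIPBL loads the ring onto DNA and drives loop extrusion, WAPL releases the ring, and PDS5A and PDS5B, alternative to each other, act in both release and stabilisation. CTCF, a zinc finger protein, halts extruding cohesin at its binding sites and so sets loop anchors and domain boundaries. Mutations of cohesin genes recur in acute myeloid leukaemia and are known to accompany t(8;21) in some patients.

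Library totals ran from 20103275 to 28039518 counts. The fusion's RUNX1T1 part lay at 52.6%, 63.0% and 40.5% of the control mean in the AE knockdown libraries, and LYL1 lay at 49.5%, 60.5% and 27.0% in the LYL1 knockdown libraries. RUNX1T1 was called lower with AE knockdown (log2 fold change -0.94, edgeR adjusted p = 0.00778), whereas LYL1 was not called with LYL1 knockdown (-1.13, adjusted p = 0.526). RUNX1, the other gene of the fusion, was also called lower with AE knockdown (-0.76, edgeR adjusted p = 0.0119). The third AE knockdown library stood apart from the others on the first principal component, at 102 against 29.7 and 46.1 in its own group and -37.6 to -23.2 elsewhere. Of 5 genes expected in these cells, all had counts. They summed to between 12605 and 33967 CPM (the counts of a gene scaled to the library's TMM-adjusted total) per library. Most of this was MPO, at 11418 to 32465 CPM, while CD34 lay at only 1.14 to 53.2 CPM. The 6 genes of other cell types summed to between 3.19 and 18.5 CPM, mostly CD79A. In the first AE knockdown library CD34 (1.14 CPM) lay below CD79A (3.32 CPM), as it did in the third (4.18 against 16.7 CPM). In a bulk library, fewer cells of a type and less RNA per cell cannot be told apart.

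AE knockdown lowered both SMC subunits of the ring, PDS5B and CTCF, while RAD21, STAG1, STAG2, NIPBL, WAPL and PDS5A were not called. A gene was called at an adjusted p below 0.05 in the quasi-likelihood test of edgeR, adjusted by Benjamini-Hochberg over all 14741 genes. By this rule 4 of the 10 genes fell and 0 rose, where 10.4% of all genes tested were called lower. The median log2 fold change of the 10 genes was -0.30, against 0.05 over all genes tested. For 7 of the 10 the AE knockdown libraries all lay below all controls, a pattern shown by 22.2% of all genes tested.

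**Figure D1:**
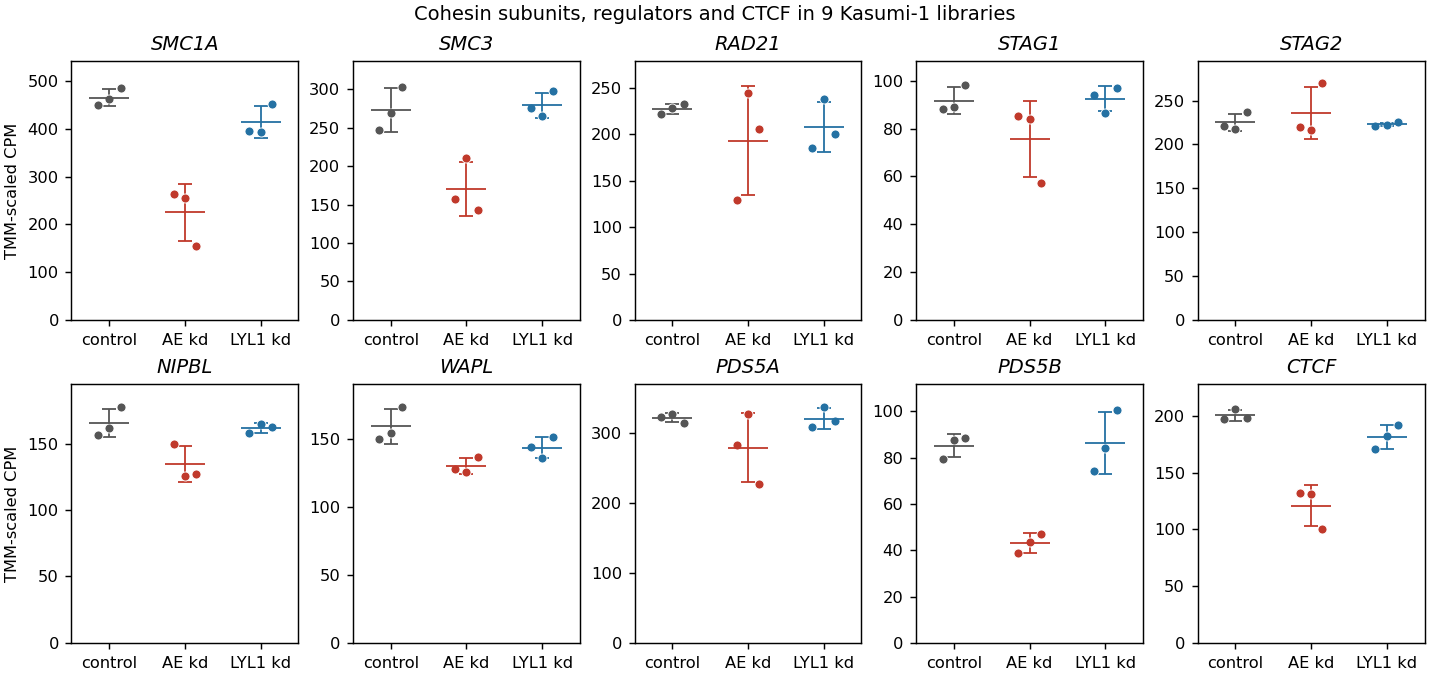
Level of each gene in TMM-scaled counts (CPM, y axis from 0) in the 3 control, 3 AE knockdown (AE kd) and 3 LYL1 knockdown (LYL1 kd) libraries. Points are libraries in label order, horizontal lines are means and bars are SD (n = 3). SMC1A, SMC3, PDS5B and CTCF lay lower in all 3 AE knockdown libraries than in any other library, while STAG2 lay at 217 to 270 CPM under AE knockdown and 218 to 237 CPM in the controls.

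SMC1A, the ATPase subunit encoded on the X chromosome, showed the largest fold change of the 10 genes in the fit of all 9 libraries. Its level was 449, 463 and 486 CPM in the control libraries and 263, 256 and 156 CPM under AE knockdown. All 3 AE knockdown libraries lay far below the controls, down to 33.4% of the control mean in the third. SMC1A thus fell 2.07-fold, a log2 fold change of -1.05 (SE 0.19) with an edgeR adjusted p of 0.00623. Without the third AE knockdown library it was -0.86 (adjusted p = 0.00157), a smaller change than that of PDS5B (-1.06), so its rank depends on that library.

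SMC3, the partner ATPase, lay at 247, 269 and 303 CPM in the control libraries and 157, 210 and 143 CPM under AE knockdown. The groups did not overlap, with the second AE knockdown library closest to the controls at 77.0% of their mean. SMC3 thus fell 1.60-fold, a log2 fold change of -0.68 (SE 0.16) with an edgeR adjusted p of 0.0163. Leaving out the second or the third control library ended this call, with adjusted p of 0.0613 and 0.0725 at log2 fold changes of -0.70 and -0.60.

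RAD21, the subunit that bridges the SMC heads and is cut by separase at anaphase, was not called. It lay at 222, 228 and 232 CPM in control libraries and at 129, 245 and 206 CPM under AE knockdown. The first AE knockdown library held 56.6% of the control mean and the second 107%, so the knockdown libraries spanned the controls. RAD21 had a log2 fold change of -0.24 (SE 0.21, 95% confidence interval -0.69 to 0.22) and an edgeR adjusted p of 0.428. Its change moved to -0.02 without the first AE knockdown library and to -0.44 without the second (adjusted p = 0.118). Among the 10 genes RAD21 had the widest relative spread with AE knockdown, a coefficient of variation of 30.5% against 2.23% in the controls.

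The alternative STAG subunits were not called. STAG2, the more abundant of them in these cells and a gene often mutated in cancer, lay at 221, 218 and 237 CPM in the control libraries and 220, 217 and 270 CPM under AE knockdown. The first and second AE knockdown libraries lay within or just under the control range and the third lay above it, at 120% of the control mean. STAG2 had a log2 fold change of 0.06 (SE 0.13, 95% confidence interval -0.22 to 0.35) and an edgeR adjusted p of 0.747, and it was at -0.06 without the third AE knockdown library.

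STAG1 lay at 88.1, 88.9 and 98.2 CPM in the control libraries and 85.3, 84.2 and 57.1 CPM under AE knockdown. All 3 AE knockdown values were below the controls, the third alone by a wide margin. For STAG1 this gave a log2 fold change of -0.28 (SE 0.16, 95% confidence interval -0.63 to 0.07) with an edgeR adjusted p of 0.226, and -0.13 without the third library.

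The loader NIPBL lay at 157, 162 and 177 CPM in the control libraries and 150, 126 and 127 CPM under AE knockdown. The releasing factor WAPL lay at 150, 154 and 173 CPM in the control libraries and 128, 126 and 136 CPM under AE knockdown. For both genes the groups did not overlap but the differences were small. Their log2 fold changes were -0.30 (SE 0.12) and -0.29 (SE 0.12), with edgeR adjusted p of 0.105 and 0.103. DESeq2 called both, at adjusted p of 0.046 for NIPBL and 0.0399 for WAPL, where it called 13.4% of all genes tested lower.

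Of the PDS5 paralogs, PDS5B was called and PDS5A was not. PDS5B lay at 79.4, 87.7 and 88.4 CPM in the control libraries and 38.7, 43.7 and 47.2 CPM under AE knockdown. Each AE knockdown library held between 45.5% and 55.4% of the control mean, and the spread between the knockdown libraries was small. PDS5B thus fell 1.97-fold, a log2 fold change of -0.98 (SE 0.15) with an edgeR adjusted p of 0.00317. PDS5A, the more abundant paralog, lay at 323, 327 and 315 CPM in the control libraries and 283, 327 and 227 CPM under AE knockdown. The second AE knockdown library lay within the control range and the third held 70.7% of their mean. For PDS5A the log2 fold change was -0.21 (SE 0.15, 95% confidence interval -0.53 to 0.12), at an edgeR adjusted p of 0.332.

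CTCF lay at 197, 206 and 198 CPM in the control libraries and 132, 131 and 100.2 CPM under AE knockdown. The controls were tightly grouped, and the first and second AE knockdown libraries held 65.7% and 65.5% of their mean, the third less. CTCF thus fell 1.66-fold, a log2 fold change of -0.73 (SE 0.14) with an edgeR adjusted p of 0.00721.

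Leaving out any 1 library, the calls of SMC1A, PDS5B and CTCF held, with log2 fold changes from -1.18 to -0.86, -1.06 to -0.91 and -0.80 to -0.62. The third AE knockdown library had the lowest RUNX1T1 level. It also had the lowest SMC1A, SMC3, STAG1, PDS5A and CTCF of its group, but the highest STAG2, WAPL and PDS5B. The part of the RUNX1T1 level in these differences was not tested.

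All 10 genes have long coding sequences, from 1893 bases in RAD21 to 8412 bases in NIPBL, and long genes as a class had lower fold changes with AE knockdown. The 3814 tested genes with a coding sequence of at least 1893 bases had a median log2 fold change of -0.14, and 18.9% of them were called lower. Per library their median log2 level relative to the control mean was -0.11, -0.14 and -0.22 under AE knockdown and -0.03 in each LYL1 knockdown library. With every library corrected for its trend against coding length, SMC1A, PDS5B and CTCF were still called, at -0.85, -0.73 and -0.62 (adjusted p of 0.00923, 0.0131 and 0.0098). SMC3 was then at -0.47 (adjusted p = 0.0539), STAG2 at 0.30 (adjusted p = 0.156), and NIPBL and PDS5A changed sign, to 0.01 and 0.02.

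The RefSeq promoters of the 4 genes that fell are shown because AE binds DNA through the RUNX1 part and LYL1 through E-boxes, together with E proteins. The windows are the 250 bases before each start site, GRCh38.p14, written 5′ to 3′ on the gene's strand. Capitals mark matches to the RUNX core TGTGGT or to the E-box CANNTG, each searched on both strands.
SMC1A (chrX:53422729-53422978, minus strand): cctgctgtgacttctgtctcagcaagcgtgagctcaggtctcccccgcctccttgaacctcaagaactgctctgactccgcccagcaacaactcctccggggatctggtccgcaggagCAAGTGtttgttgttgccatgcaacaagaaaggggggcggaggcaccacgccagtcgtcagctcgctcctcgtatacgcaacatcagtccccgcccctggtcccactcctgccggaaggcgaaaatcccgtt
SMC3 (chr10:110567445-110567694, plus strand): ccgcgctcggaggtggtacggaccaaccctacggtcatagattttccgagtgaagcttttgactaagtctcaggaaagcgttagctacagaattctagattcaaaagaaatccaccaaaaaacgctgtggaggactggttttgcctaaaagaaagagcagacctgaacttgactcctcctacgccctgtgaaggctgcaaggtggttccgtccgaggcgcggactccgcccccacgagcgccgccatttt
PDS5B (chr13:32586202-32586451, plus strand): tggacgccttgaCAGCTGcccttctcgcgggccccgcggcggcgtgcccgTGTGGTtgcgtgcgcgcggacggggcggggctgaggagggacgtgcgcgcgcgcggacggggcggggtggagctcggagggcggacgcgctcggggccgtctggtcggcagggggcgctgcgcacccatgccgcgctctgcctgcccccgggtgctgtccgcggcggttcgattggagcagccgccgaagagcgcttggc
CTCF (chr16:67562276-67562525, plus strand): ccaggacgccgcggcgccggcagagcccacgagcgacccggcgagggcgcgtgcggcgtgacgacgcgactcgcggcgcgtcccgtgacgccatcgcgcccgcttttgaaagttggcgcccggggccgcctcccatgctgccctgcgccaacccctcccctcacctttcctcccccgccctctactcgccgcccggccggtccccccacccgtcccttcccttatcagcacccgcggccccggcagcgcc

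Only PDS5B of these 4 windows held the RUNX letters, starting 200 bases before the start site, along with an E-box that starts 238 bases before it. The SMC1A window shown held 1 E-box match, 132 bases before the start. The window of another RefSeq start of SMC1A, slightly downstream, overlaps it and held 2. They were the same CAAGTG, 206 bases before that start, and a CATTTG 52 bases before it. SMC3 and CTCF held neither. The RUNX letters occurred in 11% of all 35116 promoter windows of this length and E-box letters in 61.8%, and no RUNX match overlapped an E-box match in the windows of these genes. RefSeq windows were at hand for 9 of the 10 genes. In the other 5 genes, STAG1, WAPL and PDS5A held neither motif, NIPBL held 2 E-boxes, and 1 of the 3 STAG2 starts held 1. A match is a description of letters and not a binding site.

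**Figure D2:**
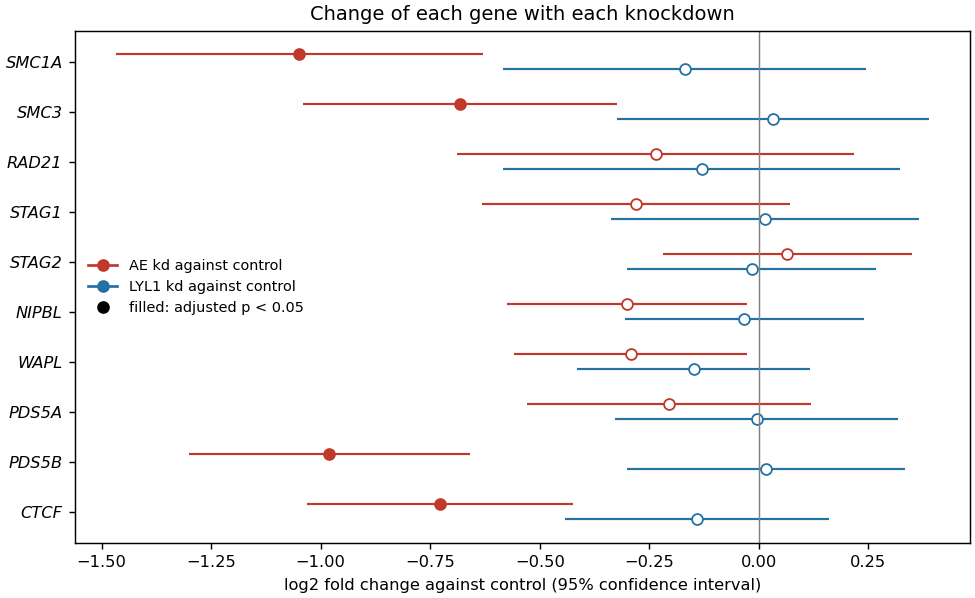
Log2 fold change against control (x axis) with its 95% confidence interval (bars) for each gene in the AE knockdown (red) and the LYL1 knockdown (blue), from the same model of 9 libraries. Filled points were called at an adjusted p below 0.05: SMC1A, SMC3, PDS5B and CTCF under AE knockdown and 0 genes with LYL1 knockdown.

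LYL1 knockdown against control gave no call among the 10 genes. The target LYL1 itself was not called at 2.19-fold lower (log2 fold change -1.13), so the lack of a call alone says little. The confidence intervals, which rest on the spread shared by the groups, say more. They reached from -0.58 to 0.39 on the log2 scale, so a 2.19-fold change lay outside the interval of each of the 10 genes. Smaller changes within the intervals are not excluded for these 10 genes. The edgeR adjusted p was at least 0.999 for each, 0 of 10 had an unadjusted p below 0.05, and DESeq2 and limma-voom called 0 as well. The background was low in this comparison: 0.0136% of all genes tested were called in either direction, and 4.82% had an unadjusted p below 0.05. The median log2 fold change of the 10 genes was -0.02 and of all genes tested 0.01.

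SMC1A lay at 396, 394 and 452 CPM in LYL1 knockdown libraries 538, 540 and 542, of which the last lay within the control range. The change was -0.17 on the log2 scale (SE 0.19, 95% confidence interval -0.58 to 0.24). CTCF lay at 171, 183 and 192 CPM, all below the 3 controls, at -0.14 (SE 0.14, interval -0.44 to 0.16). It was the only one of the 10 genes whose LYL1 knockdown and control libraries did not overlap, where 8.17% of all genes tested were lower without overlap. WAPL lay at 144, 136 and 151 CPM, at -0.15 (interval -0.41 to 0.12).

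RAD21 again varied, at 185, 238 and 200.5 CPM in the 3 LYL1 knockdown libraries. SMC3 lay at 275, 265 and 297 CPM, at 0.03 (interval -0.32 to 0.39). STAG2 was the steadiest of the 10 genes there, at 221, 222 and 225 CPM. STAG1, NIPBL, PDS5A and PDS5B had log2 fold changes between -0.03 and 0.02. For PDS5B the LYL1 knockdown libraries were spread, at 74.1, 84.3 and 100.3 CPM. The intervals of the 10 genes reached from -0.58 to 0.39 in all, so changes of that size are not excluded by these data.

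Compared directly, AE knockdown lay below LYL1 knockdown for the same 4 genes. The comparisons against control share the control libraries, whereas the direct comparison uses them only for the filter, the scaling and the estimate of spread. The direct comparison reuses the same AE knockdown libraries, so its calls are not independent of the calls against control. It called 4 of the 10 genes lower and 0 higher, where 9.7% of all genes tested were called lower. SMC1A differed by -0.88 on the log2 scale (SE 0.19, edgeR adjusted p = 0.0113) and SMC3 by -0.71 (SE 0.16, adjusted p = 0.0139). The difference was -0.997 (SE 0.15, adjusted p = 0.00329) for PDS5B and -0.59 (SE 0.14, adjusted p = 0.0156) for CTCF. For RAD21, STAG1, STAG2, NIPBL, WAPL and PDS5A the adjusted p lay between 0.147 and 0.744. With only the 6 libraries compared, PDS5B alone was called (adjusted p = 0.0263), with SMC1A at 0.0525, SMC3 at 0.0569 and CTCF at 0.0705. CTCF also lost its call without LYL1 knockdown library 542 (edgeR adjusted p = 0.051). All 3 AE knockdown libraries lay below all 3 LYL1 knockdown libraries for 6 of the 10 genes, where 17.2% of all genes tested did.

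Ratios of counts within a library show the balance between alternative or partner subunits without any scaling. PDS5B to PDS5A lay at 0.246, 0.268 and 0.281 in the controls, at 0.137, 0.134 and 0.208 under AE knockdown and at 0.240, 0.250 and 0.317 with LYL1 knockdown. The AE knockdown ratios all lay below the controls, with a difference in mean log2 ratio of -0.76. The two-sided exact permutation test gave p = 0.1, the smallest that 3 against 3 libraries allow. The LYL1 knockdown ratios overlapped the controls (difference 0.01, exact p = 0.9).

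STAG2 to STAG1 lay at 2.51, 2.45 and 2.41 in the control libraries and at 2.58, 2.57 and 4.72 with AE knockdown. All 3 knockdown ratios were above the controls, but the first and second only slightly (difference in mean log2 ratio 0.36, exact permutation p = 0.1, and 0.07 without the third library). With LYL1 knockdown the ratio was 2.35, 2.56 and 2.32 (difference -0.03, exact p = 0.6). Over the 4 comparisons of these ratios no adjusted p could pass 0.05. SMC1A to SMC3, a ratio examined after the values were seen and not tested, lay at 1.82, 1.72 and 1.60 in the controls, 1.68, 1.22 and 1.09 under AE knockdown and 1.44, 1.49 and 1.52 with LYL1 knockdown.

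**Figure D3:**
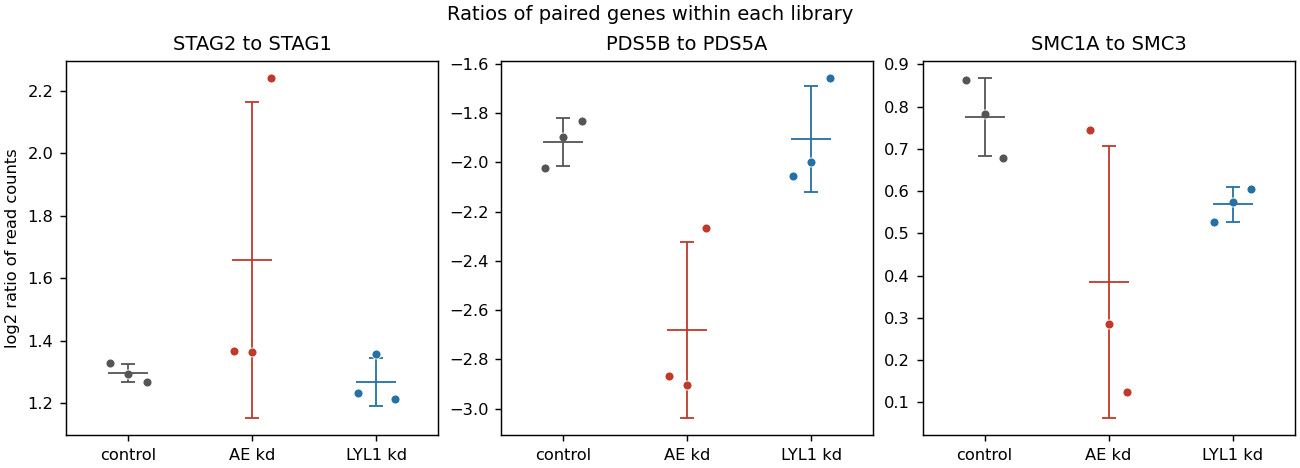
Log2 ratio of the read counts of paired genes within each library (y axis, no scaling between libraries) by group. Points are libraries, horizontal lines are means and bars are SD (n = 3). PDS5B to PDS5A lay lower in all 3 AE knockdown libraries, while the higher mean of STAG2 to STAG1 with AE knockdown came from 1 library at a ratio of 4.72.

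Between genes, levels can be compared only per length, here as CPM per kilobase of annotated exon. In the controls SMC3 was highest at 66.4 ± 6.91 CPM per kilobase (SD, n = 3), followed by SMC1A at 46.9 ± 1.85. CTCF at 42.6 ± 1.00, PDS5A at 42.6 ± 0.83 and RAD21 at 41.1 ± 0.915 did not differ beyond their spread. STAG2 followed at 33.9 ± 1.497 and WAPL at 25.1 ± 2.00. NIPBL at 15.5 ± 1.01 and STAG1 at 13.9 ± 0.854 overlapped, and PDS5B was lowest at 11.4 ± 0.668.

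With AE knockdown the order changed. SMC3 at 41.3 ± 8.64 CPM per kilobase, PDS5A at 37.0 ± 6.59, STAG2 at 35.5 ± 4.48 and RAD21 at 34.9 ± 10.7 overlapped at the top. CTCF at 25.8 ± 3.84 and SMC1A at 22.7 ± 6.07 overlapped with WAPL at 20.5 ± 0.896. PDS5B remained the lowest at 5.76 ± 0.567, below STAG1 at 11.5 ± 2.42. With LYL1 knockdown SMC3 stayed highest at 67.8 ± 3.98 and PDS5B lowest at 11.5 ± 1.77. Exon lengths came from GENCODE 29, which may not be the annotation used for counting, so these levels are approximate.

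Related genes were read from 4 lists. Of 8 condensin genes, which encode the sister SMC complex that compacts mitotic chromosomes, 6 fell under AE knockdown and 0 rose, where 10.4% of all genes tested and 18.9% of those with long coding sequences were called lower. Their median log2 fold change was -0.58, against 0.05 over all genes tested and -0.14 over the long ones. The ATPase SMC2 lay at 195, 193 and 207 CPM in the control libraries and 142, 136 and 89.2 CPM with AE knockdown (log2 fold change -0.70, SE 0.17, edgeR adjusted p = 0.0178). NCAPD3, NCAPH and SMC4 fell by 0.52, 0.58 and 0.65 on the log2 scale (adjusted p of 0.0263, 0.027 and 0.0288). With any 1 control library left out, or with the replicate block, 0 condensin genes were called. There were 3 without the first AE knockdown library, 2 with the correction for coding length and 1 in the fit of only the 6 libraries. Of all genes tested, 3.53% to 3.97% were called lower with 1 control left out and 6.18% with the block. Without the first AE knockdown library, with the length correction and with only the 6 libraries, the shares were 9.77%, 10.6% and 8.85%.

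Of 13 genes of cohesin loading, acetylation and cohesion, 11 were tested and none was called in either direction with AE knockdown (lowest adjusted p = 0.14, median 0.18), also by DESeq2 and limma-voom, and 0 had an unadjusted p below 0.05. Over all genes tested 10.4% were called lower, 11.4% were called higher and 37.2% had an unadjusted p below 0.05. They include MAU2, the partner of NIPBL, the acetyltransferases ESCO1 and ESCO2, the deacetylase HDAC8 and separase (ESPL1). The sororin gene CDCA5, which counters WAPL on replicated DNA, was higher with AE than with LYL1 knockdown (log2 difference 0.43, SE 0.14, edgeR adjusted p = 0.0485), at 99.3, 107 and 82.1 CPM against 69.6, 77.3 and 67.1 CPM. That call was lost in 14 of the 19 other settings run. Against control CDCA5 was called higher with AE knockdown in 1 of 20 other settings, without the third AE knockdown library (adjusted p = 0.0484).

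None of the 6 genes of the SMC5/6 complex was called (median 0.12, lowest adjusted p = 0.0569). There 1 of the 6 had an unadjusted p below 0.05, against 37.2% of all genes tested. It was NSMCE1 (named after its values were seen, log2 fold change 0.53), which was called in 3 of 20 other settings: by DESeq2 (adjusted p = 0.0382), with the filter of 50 counts (0.0481) and without the second AE knockdown library (0.028). Among CTCF relatives and other looping factors, 1 of 7 tested genes fell and 1 rose, which is near the 10.4% and 11.4% of all genes tested. TOP2A, the mitotic topoisomerase, lay at 831, 848 and 885 CPM in the control libraries and 533, 619 and 461 CPM with AE knockdown (log2 fold change -0.67, SE 0.15, edgeR adjusted p = 0.013). MAZ, a zinc finger factor, rose by 0.59 on the log2 scale, from 32.2, 33.3 and 31.6 CPM to 54.5, 48.8 and 42.5 CPM (SE 0.14, edgeR adjusted p = 0.016). Neither was called with any 1 control library left out, at log2 fold changes of -0.69 to -0.65 for TOP2A and 0.57 to 0.60 for MAZ, nor with the replicate block (adjusted p of 0.0566 and 0.0593). TOP2A also lost its call with the coding-length correction, at -0.42 (adjusted p = 0.054). The germline paralogs CTCFL and RAD21L1 had no count in any library. With LYL1 knockdown 0 genes of the 4 lists were called by edgeR. Of the 32 tested, 1 had an unadjusted p below 0.05, the factor YY1 at a log2 fold change of -0.30. All 8 condensin genes had log2 fold changes below 0 there, as did 7219 of all 14741 genes tested. For 4 of the 8 the libraries lay below all controls, against 8.17% of all genes tested. Between AE and LYL1 knockdown 1 condensin gene was called lower, SMC4 (-0.65, edgeR adjusted p = 0.0302), where 9.7% of all genes were. TOP2A and MAZ were not called between the knockdowns (edgeR adjusted p of 0.0906 and 0.115).

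**Figure D4:**
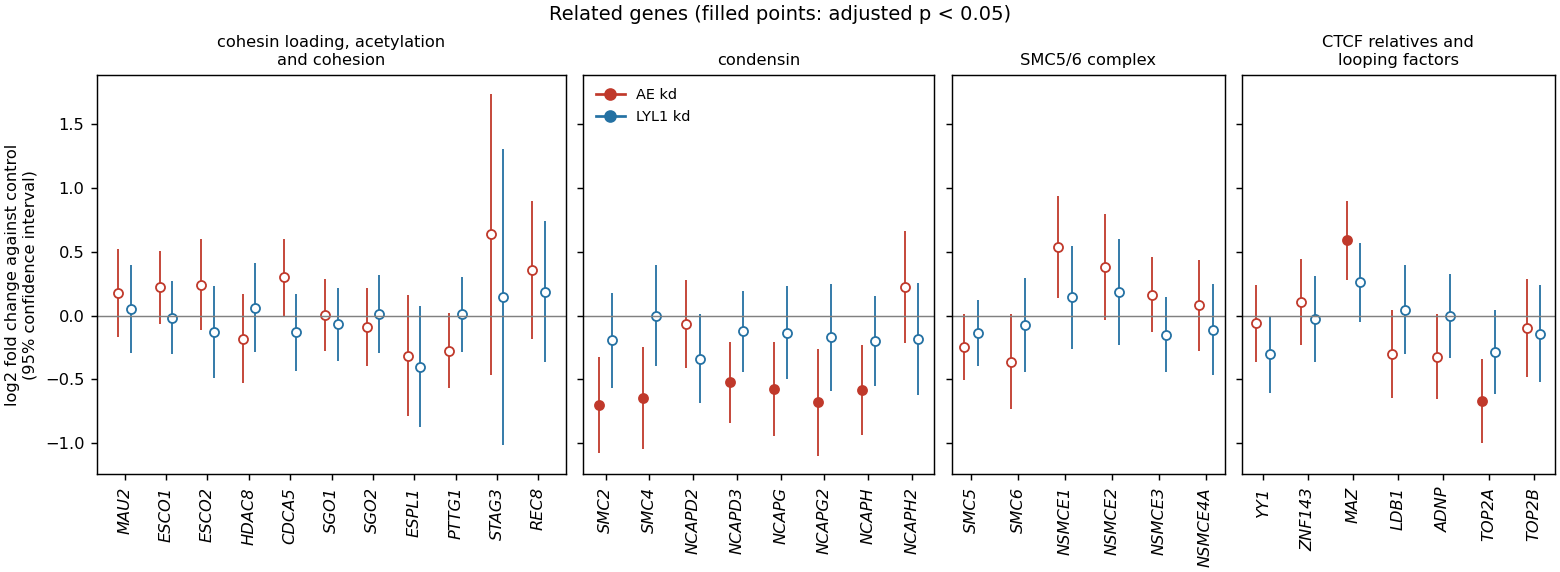
Log2 fold change against control (y axis) with its 95% confidence interval (bars) for 32 tested related genes in 4 lists, with AE knockdown (red) and LYL1 knockdown (blue). Filled points were called at an adjusted p below 0.05. The 6 called condensin genes lay between -0.70 and -0.52 with AE knockdown.

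The genes whose levels followed these profiles most closely were found by the root mean square (RMS) difference in centred log2 CPM over the 9 libraries, among 7600 tested genes whose log2 CPM averaged 4 or more. Nearest to the mean of SMC1A, SMC3 and RAD21 were CENPE (RMS difference 0.0584), TUT4 (0.0706), TFCP2 (0.0743), RIF1 (0.0747) and ODF2 (0.0749). The 3 genes behind that mean did not share 1 profile. SMC1A and SMC3 differed by 0.225, SMC3 and RAD21 by 0.338, and SMC1A and RAD21 by 0.519. Nearest to CTCF were SNRNP70 (0.0559), ZC3HAV1 (0.0611), BRD7 (0.0632), LARP1 (0.0638) and NSD1 (0.0639). Among the 10 genes themselves, NIPBL and WAPL were the most alike (0.108), SMC3 and CTCF differed by 0.149, and SMC1A and STAG2 were the least alike (0.584).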

How the data were processed

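The authors deposited 1 table of raw read counts per gene symbol for each of 9 libraries. The submitters' processing notes name the genome build hg19 and the tools featureCounts 2.0.1, HISAT2 2.2.0, fastp 0.20.1, SAMtools 1.7 and DESeq2 1.26.0, without their roles. Annotation, strand setting and multi-mapping reads are not given in the sources used here, so reads of overlapping or near-identical genes cannot be separated. No 2 libraries held identical counts.

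Genes were kept with filterByExpr, scaled by TMM and fitted with edgeR 4.0.16 (R 4.3.3), robust quasi-likelihood F test, 3 group means over 9 libraries. The 3 groups share 1 estimate of spread per gene, although their scatter was unequal. The biological coefficient of variation was 7.56% in the controls, 31.4% with AE knockdown and 20.9% with LYL1 knockdown. Standard errors and adjusted p-values therefore rest on a spread that no single group need have. Adjustment was by Benjamini-Hochberg across the 14741 genes kept. The standard error is the fold change's size over the square root of F, and intervals are 95%. Ratios used exact permutation tests. Alternatives were RLE or no scaling, other filters, DESeq2 1.42.0, limma 3.58.1 (voom), non-robust and legacy tests, 6-library fits, a coding-length correction (lowess, genes with a coding length, 77.7% of those tested), a replicate block and each library left out. The legacy test and the counts in related lists were added after seeing the data. On simulated counts for AE knockdown against control, 14270 of 14470 genes were left unchanged. Of the changed genes, 10.4% at 1.5-fold, 49.3% at 2-fold and 97% at 4-fold were called. The members and lists were chosen with earlier results of these data known. Named are the 10 members, the knockdown targets, called genes of the 4 lists (up to 4 each) and the 5 nearest genes per profile.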

Additional observations from a re-analysis of the deposited data

Results flagged for a closer look

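The effects of the knockdowns differed for 4 of the 10 genes by a direct test of AE knockdown against LYL1 knockdown within the model of 9 libraries. The log2 difference was -0.88 for SMC1A, -0.71 for SMC3, -0.997 for PDS5B and -0.59 for CTCF, and in each gene all 3 AE knockdown libraries lay below all 3 LYL1 knockdown libraries, as did 17.2% of all genes tested. Against control, 3214 genes were called for AE (957 to 1096 with any 1 control left out). For LYL1 the count was 2, with 6 and 11 without the second and the third AE knockdown library, 15 with only the 6 libraries compared and 30 by DESeq2. LYL1 itself, at 2.19-fold lower, was not among the called genes (edgeR adjusted p = 0.526), so these counts do not say how many genes changed.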

How the results depend on the processing

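The count of called genes among the 10 stayed at 3 to 6 in the AE comparison over 20 other settings, 3 to 4 without 1 library, and at 0 in the LYL1 comparison over 19. In the AE comparison DESeq2 gave the 6, where 13.4% of all genes tested were called lower. Without 1 library that share ran from 3.53% to 12.9%. AE against LYL1 gave 3 to 4 without 1 library and 1 with only the 6 libraries compared, where 3.28% of all genes tested were called lower. PDS5B to PDS5A with LYL1 knockdown ranged from -0.11 to 0.0894 without 1 library, across 0. Other sign changes were all in uncalled genes. With AE knockdown, STAG2 was -0.0574 without AE replicate 3 (range to 0.12), and with the coding-length correction NIPBL was 0.0107 and PDS5A 0.022. With LYL1 knockdown that correction gave STAG2 0.027, NIPBL 0.0309 and PDS5A 0.0408, library size only gave STAG2 0.00167 and PDS5A 0.0124, and no low-count filter gave STAG1 -0.00773 and PDS5B -0.00526. Without 1 library the LYL1 ranges were -0.0373 to 0.11 for SMC3, -0.0183 to 0.0647 for STAG1, -0.0399 to 0.0205 for STAG2, -0.0717 to 0.0204 for NIPBL, -0.0431 to 0.0218 for PDS5A and -0.10 to 0.11 for PDS5B. In AE against LYL1, WAPL was 0.0331 with the length correction, RAD21 ranged from -0.31 to 0.11 and STAG2 from -0.0363 to 0.14. The cause was not tested.

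The deviations of same-numbered control and AE libraries from their group means had correlations of 0.0416, -0.0135 and 0.00685. Between libraries of different number they ran from -0.047 to 0.0317. The labels do not say what a shared number means, and these few correlations cannot decide it. With the replicate block 3 genes were called and SMC3 was at -0.71 (adjusted p = 0.0579). All genes called numbered 957 to 1096 with any 1 control left out and 3214 with all libraries. In the simulation of AE knockdown against control 10.4% of 1.5-fold and 49.3% of 2-fold changes were called. There 14270 of 14470 genes were left unchanged, whereas 3214 of 14741 were called in the data. The adjustment over all genes was therefore stricter in the simulation. Its shares do not give the share of changes found or missed in the data. The other comparisons were not simulated.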
